A study of Mus musculus with 8 samples.

Results

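Translation initiation factors are the proteins that bring a ribosome, a messenger RNA and the initiator transfer RNA together before the first peptide bond is made. The genes described here are those whose mouse symbol starts with Eif1 to Eif6, without the eIF2 kinases (Eif2ak genes), pseudogenes and genes that are not protein-coding. This rule, which used names alone and no measured value, gave 51 genes of the 55421 in the table. Of these, 50 had enough counts to be tested. The remaining one, Eif4ebp3, had 0 counts in all 8 libraries. All 50-base stretches in the last 300 bases of its transcript recur in other genes, most in a read-through transcript of the same locus. Its reads could thus not have been told apart from those of other genes.

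The cells, mouse embryonic stem cells with a 129/Ola background, lack the miR-290-295 cluster, a group of microRNAs abundant in these cells. All 8 libraries came from such knockout cells, so no comparison here involves cells with the cluster, and the labels do not say whether the line is 1 clone. They were grown on gelatin in serum with LIF, transfected with an siPOOL at 5 nM and harvested 36 hours later. An siPOOL is a mixture of many short interfering RNAs against 1 gene. The pools were directed against Tfap4 (siTfap4), Wiz (siWiz) and Zic2 (siZic2), which encode DNA-binding or chromatin proteins, and siNeg served as the control pool. Each group had 2 libraries made with a kit that reads the 3' ends of poly(A) RNA, so each count is a read near a transcript end and is not scaled by transcript length. No label says that the 2 libraries of a group came from separate cultures, so p-values measure the spread between these libraries, which may be technical.

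Total counts ran from 8326675 to 13788856 per library. The targeted genes were lower in the libraries labelled for them in part: Tfap4 read 12.03 and 15.71 CPM (counts for each 1000000 reads of the scaled library) in siTfap4 against 28.6 to 37.1 in the other 6 libraries, and Wiz read 16.8 and 19.7 CPM in siWiz against 30.1 to 49.9. Zic2 read 2.15 and 1.83 CPM in siZic2, 4.49 and 2.21 in siNeg, 2.59 and 2.005 in siWiz and 6.20 and 5.39 in siTfap4. The siZic2 pair thus overlaps the siWiz pair, and the level of Zic2 does not check the siZic2 label. The 8 stem cell markers (Pou5f1, Sox2, Nanog and others) were present in every library, with a summed level of 2805 to 3377 CPM. The siTfap4 pair lay outside the range of the others for 6 of the 8: Nanog read 77.6 and 178 CPM against 238 to 516 in the other 6 libraries, Tdgf1 411 and 538 against 594 to 796, Esrrb 247 and 273 against 331 to 447, Pou5f1 57.4 and 48.1 against 17.6 to 27.5, Dppa4 575 and 448 against 218 to 311 and Sox2 898 and 904 against 682 to 861. Over all genes tested, both siTfap4 libraries lay above the other 6 for 21.4% and below them for 23%. The 6 fibroblast markers summed to 6.80 to 11.7 CPM, with Postn at 0 throughout. The 3 neural markers summed to 46.3 to 84.1 CPM, with Neurog2 at 0. The 5 primitive endoderm markers summed to 3.84 to 7.76 CPM. The 4 trophectoderm markers summed to 6.57 and 6.80 CPM in siTfap4 and to 3.44 to 5.57 CPM in the others. Most of this was Krt7, at 5.83 and 5.16 CPM in siTfap4 against 2.90 to 4.46. Hand1 read 0.62 and 1.29 CPM against 0.11 to 0.58. Cdx2 overlapped the others, and Elf5 read 0 in both siTfap4 libraries and up to 0.33 elsewhere. The part of these marker differences in the results below was not tested.

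As background, initiation runs in a fixed order. The eIF2 complex carries the initiator transfer RNA as a ternary complex with GTP, and eIF2B reloads eIF2 with GTP after each round. eIF3, eIF1, eIF1A and eIF5 gather on the small subunit, while eIF4F (the cap-binding eIF4E, the scaffold eIF4G and the helicase eIF4A) recruits the messenger RNA. The complex scans to the start codon, eIF5B joins the large subunit, and eIF5A and eIF6 act on elongating and on unjoined ribosomes. Phosphorylation of the eIF2 alpha subunit and binding of eIF4E by the 4E-BP proteins are the main brakes, and embryonic stem cells are known for a low rate of translation relative to their differentiated progeny.

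Tfap4 protein is a basic helix-loop-helix factor that binds the E-box CAGCTG, so the sequences just before the start sites of some members are shown to place the measurements. Promoter windows of 300 bases (250 before and 50 after the RefSeq start, GRCm38.p6) were matched by symbol for 39 of the 51 members, and 12 had none. CAGCTG, which reads the same on both strands, was present for 2 of the 39 (5.1%), Eif4e and Eif5b. The share was 18.3% over all 27025 genes that had a window. A gene counted if any of its windows held the motif. The related E-box CACGTG, also the same on both strands and bound by the Myc and Max family, was present for 10 of 39 (25.6%). The share over the same 27025 genes was 8.1%. The median GC content of the windows was 62.0% for the members and 52.4% for all genes, which was not matched in these shares. These are matches of letters and not measured binding.

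The 250 bases before the start are printed 5' to 3' for 4 members. Eif4a1 (chr11:69672424-69672673, minus strand) and Eif2b1 (chr5:124579132-124579381, minus strand) had lower and Eif2b5 (chr16:20498567-20498816, plus strand) had higher transcript counts in siTfap4. Eif5b (chr1:37997760-37998009, plus strand) is one of the pair with CAGCTG and was not called. Capitals mark CACGTG, 189 bases before the start of Eif4a1, and CAGCTG, 184 bases before that of Eif5b.
Eif4a1: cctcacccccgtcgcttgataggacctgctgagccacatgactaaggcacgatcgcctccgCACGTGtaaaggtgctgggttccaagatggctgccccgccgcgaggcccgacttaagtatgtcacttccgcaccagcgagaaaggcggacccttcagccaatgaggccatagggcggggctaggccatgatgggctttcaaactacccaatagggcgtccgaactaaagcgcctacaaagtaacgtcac
Eif2b1: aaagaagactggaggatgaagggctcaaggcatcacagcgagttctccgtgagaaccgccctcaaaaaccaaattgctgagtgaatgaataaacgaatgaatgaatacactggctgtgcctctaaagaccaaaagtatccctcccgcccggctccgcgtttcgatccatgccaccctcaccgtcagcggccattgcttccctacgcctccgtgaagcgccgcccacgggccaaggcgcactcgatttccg
Eif2b5: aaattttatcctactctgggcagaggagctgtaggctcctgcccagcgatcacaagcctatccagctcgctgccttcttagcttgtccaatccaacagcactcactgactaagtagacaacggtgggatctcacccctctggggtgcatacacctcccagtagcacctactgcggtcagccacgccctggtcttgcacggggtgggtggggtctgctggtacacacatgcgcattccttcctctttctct
Eif5b: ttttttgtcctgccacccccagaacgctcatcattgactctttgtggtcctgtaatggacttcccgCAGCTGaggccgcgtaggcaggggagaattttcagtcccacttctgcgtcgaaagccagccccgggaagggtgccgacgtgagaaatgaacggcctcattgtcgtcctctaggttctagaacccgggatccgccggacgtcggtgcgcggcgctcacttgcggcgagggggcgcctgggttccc
Among the 6 members with a window that were lower in siTfap4 than in siNeg, 0 held CAGCTG and 2 held CACGTG (Eif4a1 and Eif5a). The pair of members that were higher held neither motif. Of the 31 that were not called, 2 held CAGCTG and 8 held CACGTG.

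Levels of single genes are CPM after TMM scaling of the library sizes. Differences are log2 fold changes with their standard error (SE) from the quasi-likelihood test of edgeR, fitted over all 8 libraries, and a gene is said to rise, fall or be called where its Benjamini-Hochberg adjusted p-value, taken over all 14647 tested genes, was under 0.05. Every adjusted p below comes from this test unless DESeq2 is named. These are bulk samples, in which fewer cells of a type and less RNA per cell cannot be told apart.

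With siTfap4, 10 of the 50 tested initiation factor genes differed from siNeg. Eif2b5 and Eif2s2 rose, and Eif3j2, Eif4a1, Eif3m, Eif2b1, Eif3e, Eif5a, Eif2s3x and Eif4ebp2 fell. The 2 members that rose are 4% of those tested, beside 4.24% of all genes tested, and the 8 that fell are 16%, beside 11.7% of all genes. The median log2 fold change was -0.05 over the 50 members and 0.01 over all genes, and the median size regardless of sign was 0.63 against 0.52. DESeq2 called 15 members (5 higher and 10 lower, 30% in all), beside 18.7% of all genes (887 higher and 1850 lower of 14647). An unadjusted p under 0.05 was found for 28 members (56%), beside 32.4% of all genes. These all-gene values are also the background for the counts by role group below.

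**Figure D1:**
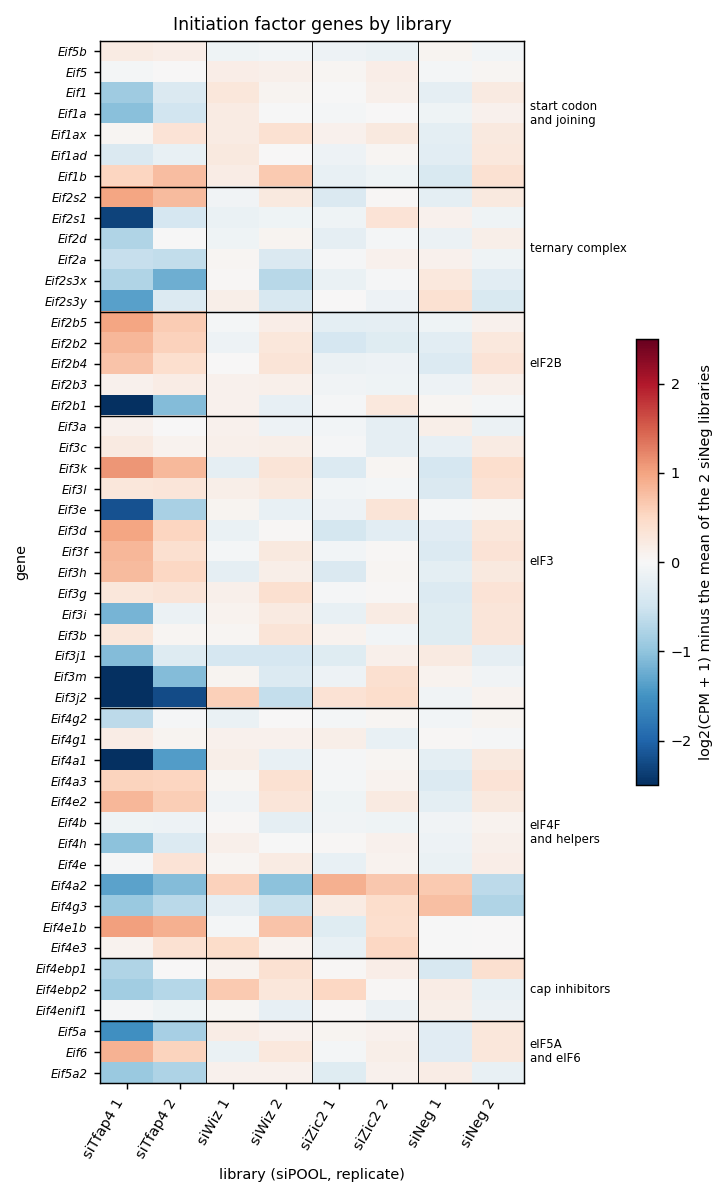
Level of each tested member in the 8 libraries, as log2 of CPM + 1 minus the mean of the 2 siNeg libraries, with members grouped by role; the colour scale ends at 2.5 in each direction. The 2 siTfap4 columns hold most of the strong colours, in both directions, and 7 of the 8 members that fell were lower in siTfap4 replicate 1 than in replicate 2.

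The group of the cap-binding eIF4F and its helpers, which also holds Eif4a3, had 12 tested members. By edgeR, 1 fell with siTfap4 and 0 rose. DESeq2 called 1 lower and 1 higher. The member that fell by edgeR was Eif4a1 (chr11:69666936-69672423, minus strand), the main form of the RNA helicase that unwinds the leader of a messenger RNA. Eif4a1 read 78.9 and 265 CPM in the siTfap4 libraries, 773 and 614 with siWiz, 685 and 720.0 with siZic2 and 588 and 828 with siNeg. Both siTfap4 libraries lay below the other 6, and they also differed from each other by more than 3 times. The mean was 172 ± 131 CPM in siTfap4 and 708 ± 169.7 in siNeg (SD, n = 2 each), and the log2 fold change was -2.04 (SE 0.42, 95% interval -2.95 to -1.14, adjusted p = 0.00713 by edgeR), which is 24.3% of the siNeg level. The size rests on which siTfap4 library is kept: it was -1.43 without siTfap4 replicate 1 and -3.18 without replicate 2, and it was called with any 1 of the 8 libraries left out.

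Its paralogue Eif4a2, a second form of the same helicase, read 24.7 and 29.9 CPM in the siTfap4 libraries, 95.6 and 30.9 with siWiz, 119.5 and 104 with siZic2 and 102 and 40.3 with siNeg. The siNeg pair and the siWiz pair were spread widely, and the lower library of each lay close to the siTfap4 pair. Against siNeg the log2 fold change was -1.38 (SE 0.47, adjusted p = 0.0584), and against siZic2 it was -2.03 (adjusted p = 0.00954, lost at 0.0836 without siTfap4 replicate 1). Eif4a2 overlaps Rfc4 on the opposite strand, and since the strand setting of the counting is not given in the sources used here, reads of the pair cannot be told apart. Eif4a3, the family member that works in the exon junction complex on spliced RNA, read 444 and 442 CPM in the siTfap4 libraries, 313 and 394 with siWiz, 294 and 324 with siZic2 and 239.8 and 384 with siNeg (log2 0.51 against siNeg, adjusted p = 0.192).

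The scaffold genes showed smaller differences. Eif4g1, the main scaffold, read 908 and 840.0 CPM in the siTfap4 libraries, 857 and 865 with siWiz, 887 and 704 with siZic2 and 817 and 782 with siNeg, with siTfap4 replicate 1 just above the range of the others and replicate 2 inside it. Eif4g2, which encodes a scaffold that does not bind eIF4E, read 902 and 1391 CPM in the siTfap4 libraries, 1269.6 and 1428 with siWiz, 1377 and 1477 with siZic2 and 1368 and 1487 with siNeg, with only siTfap4 replicate 1 apart from the rest. The cap-binding protein gene Eif4e read 159 and 205 CPM in the siTfap4 libraries, 167 and 188 with siWiz, 143 and 173 with siZic2 and 145 and 182 with siNeg (log2 0.16, SE 0.24, adjusted p = 0.683). Summed over the 12 members, the group read 3432 and 4091 CPM in siTfap4 and 4055 to 4635 in the other 6 libraries.

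Of the 4 genes that restrain cap binding, 3 were tested and 1 fell. It was Eif4ebp2 (chr10:61428491-61452661, minus strand), one of the 4E-BP proteins that hold eIF4E until mTORC1 releases it. Eif4ebp2 read 80.5 and 89.5 CPM in the siTfap4 libraries, 232 and 180.1 with siWiz, 212 and 152 with siZic2 and 169 and 129.5 with siNeg. The siTfap4 pair lay below the other 6 and agreed closely, and the mean was 85.0 ± 6.36 CPM against 149 ± 27.8 in siNeg (SD, n = 2 each). The log2 fold change was -0.81 against siNeg (SE 0.25, adjusted p = 0.0447), -1.28 against siWiz (adjusted p = 0.00683) and -1.10 against siZic2 (adjusted p = 0.00944). The call against siNeg was lost in 7 of the 8 fits that left out 1 library, with an adjusted p of up to 0.254. The other main 4E-BP gene, Eif4ebp1, read 407 and 696 CPM in the siTfap4 libraries, 732 and 899 with siWiz, 705 and 766 with siZic2 and 521 and 903 with siNeg, with siTfap4 replicate 1 lowest and replicate 2 inside the range of the rest. Eif4enif1, which encodes the carrier that moves eIF4E into the nucleus, ran from 38.5 to 49.6 CPM over all 8 libraries.

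eIF3, the largest initiation complex, had 14 tested members, of which 3 fell and 0 rose against siNeg by edgeR. DESeq2 called 3 lower and 2 higher. The summed eIF3 level was 5818 and 5448 CPM in siTfap4 and 4497 to 5479 in the others, so the sum was not lower in siTfap4. The largest change of any member was that of Eif3j2 (chr18:43475418-43477796, minus strand), a copy of the gene for the loosely bound j subunit. Eif3j2 read 3.22 and 6.10 CPM in the siTfap4 libraries, 49.6 and 21.1 with siWiz, 42.1 and 44.7 with siZic2 and 30.5 and 34.7 with siNeg, from 26 and 52 counts in the siTfap4 libraries and 221 to 608 in the others. The siTfap4 libraries were the lowest of the 8, at a mean of 4.66 ± 2.03 CPM against 32.6 ± 2.96 in siNeg (SD, n = 2 each). Log2 fold changes were -2.80 against siNeg (SE 0.40, adjusted p = 0.00114), -2.92 against siWiz (adjusted p = 0.00113; -2.17 without siWiz replicate 1) and -3.21 against siZic2 (adjusted p = 0.000359).

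Eif3j2 is a gene whose counts are uncertain. Of the 50-base stretches in the last 300 bases of its transcript, 80.1% also occur in other genes. Eif3j1 is the only gene that shares most of the stretches, and its own share was not counted apart. Eif3j2 also overlaps the gene model Gm3650 on the opposite strand or ends within 300 bases of it. Eif3j1 itself read 67.7 and 115 CPM in the siTfap4 libraries, 108 and 108 with siWiz, 117 and 158 with siZic2 and 168 and 123 with siNeg, with a log2 fold change of -0.67 (SE 0.28, adjusted p = 0.119). How the counting divided reads between the copies is not given in the sources used here, and the part of this in the Eif3j2 result was not tested.

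Eif3m and Eif3e encode other subunits of eIF3. Eif3m (chr2:104999656-105017080, minus strand) read 15.9 and 55.2 CPM in the siTfap4 libraries, 125 and 92.8 with siWiz, 108 and 156 with siZic2 and 126 and 112 with siNeg (log2 -1.74, SE 0.42, adjusted p = 0.0159). In Eif3m, 40.2% of the 50-base stretches of the last 300 bases also occur in transcripts of other genes. The gene overlaps Ccdc73 on the opposite strand or ends within 300 bases of it. Eif3e (chr15:43250058-43282719, minus strand) read 85.6 and 221 CPM in the siTfap4 libraries, 409 and 344 with siWiz, 359.5 and 487 with siZic2 and 378 and 404 with siNeg (log2 -1.35, SE 0.35, adjusted p = 0.0227). For both genes the siTfap4 libraries were the 2 lowest, and replicate 1 was under replicate 2 by more than 2 times. With 1 library left out, the call of Eif3m was lost in 2 of 8 fits (adjusted p up to 0.0724) and that of Eif3e in 3 (up to 0.139).

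Other eIF3 genes lay above siNeg in siTfap4 without being called in that comparison by edgeR. DESeq2 called 2 of them higher, Eif3d among them (adjusted p = 0.0324 by DESeq2). Eif3d, whose product can bind the cap by itself, read 557 and 407 CPM in the siTfap4 libraries, 252 and 289 with siWiz, 208 and 235 with siZic2 and 233 and 341 with siNeg. Both siTfap4 libraries were above the other 6, with a log2 fold change of 0.75 against siNeg (adjusted p = 0.0625), 0.83 against siWiz (adjusted p = 0.0446) and 1.12 against siZic2 (adjusted p = 0.00932). Eif3k encodes a small subunit. It read 902 and 743 CPM in siTfap4, 358 and 529 with siWiz, 333 and 438 with siZic2 and 316 and 560.0 with siNeg. Against siNeg its log2 fold change was 0.91 (adjusted p = 0.0569 by edgeR). Eif3a and Eif3c, the most abundant eIF3 genes, were closer to the other groups. Eif3a, the largest subunit, read 1257 and 1168 CPM in the siTfap4 libraries, 1249.7 and 1071 with siWiz, 1119 and 996 with siZic2 and 1296 and 1050.2 with siNeg, with siTfap4 inside the range of the others. Eif3c read 1064 and 969 CPM in siTfap4, 994 and 997 with siWiz, 884 and 777 with siZic2 and 787 and 1045 with siNeg. Its siTfap4 replicate 1 lay just above the range of the others.

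The eIF2 complex had the most abundant member by far. The ternary complex group also holds Eif2a and Eif2d, genes of other tRNA delivery. Of its 6 tested genes, edgeR called 1 higher and 1 lower against siNeg. DESeq2 called 1 higher and 2 lower. Eif2s2 (chr2:154871410-154892935, minus strand) encodes the beta subunit and read 9038 and 7905 CPM in the siTfap4 libraries, 4254 and 5357 with siWiz, 3547 and 4647 with siZic2 and 3856 and 5359 with siNeg. The siTfap4 libraries were the 2 highest, at 8471 ± 801 CPM against 4607 ± 1063 in siNeg (SD, n = 2 each), 1.84 times that level (log2 0.88, SE 0.27, adjusted p = 0.0448). Eif2s2 overlaps the gene a, which encodes the agouti signalling protein, on the opposite strand, and without the strand setting reads of the pair cannot be told apart. Its call was lost in 6 of the 8 fits that left out 1 library (adjusted p up to 0.219). This 1 gene moved the share of all reads that fell on initiation factors: the members took 2.19% and 2.17% of counts in siTfap4 and 1.82% to 2.05% in the others, but without Eif2s2 they took 1.31% and 1.40% against 1.41% to 1.54%.

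The other subunit genes of eIF2 were not higher in siTfap4. Eif2s1, the alpha subunit that is phosphorylated under stress, read 31.6 and 119 CPM in the siTfap4 libraries, 143 and 149 with siWiz, 149 and 203 with siZic2 and 172 and 149.6 with siNeg. Both siTfap4 libraries were below the other 6 but differed from each other by more than 3 times, with a log2 fold change of -1.09 (SE 0.42, adjusted p = 0.0927). Eif2s3x (chrX:94188707-94212862, minus strand), the gamma subunit that holds GTP, read 28.6 and 20.3 CPM in the siTfap4 libraries, 49.8 and 29.8 with siWiz, 43.0 and 47.3 with siZic2 and 58.4 and 40.4 with siNeg and fell (log2 -1.02, SE 0.30, adjusted p = 0.037). In a fit corrected for the GC content of transcript ends, its log2 fold change was -0.71 with an adjusted p of 0.0826, and its call was lost in 5 of the 8 fits that left out 1 library (up to 0.253). Its Y-linked copy Eif2s3y averaged 2.35 CPM and was not called.

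The exchange factor eIF2B has 5 subunits, and siTfap4 moved 1 of their genes up and 1 down. Eif2b5 (chr16:20498817-20509323, plus strand) encodes the catalytic epsilon subunit and read 226 and 178 CPM in the siTfap4 libraries, 109.8 and 129 with siWiz, 95.6 and 97.1 with siZic2 and 106 and 123 with siNeg. The siTfap4 libraries were the 2 highest, at 202 ± 33.5 CPM against 114 ± 12.4 (SD, n = 2 each), 1.77 times the siNeg level (log2 0.82, SE 0.23, adjusted p = 0.0285). With the GC correction the log2 value was 0.53 and the adjusted p 0.0759, and the call was lost in 4 of the 8 fits that left out 1 library (up to 0.186).

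Eif2b1 (chr5:124570213-124579131, minus strand) encodes the regulatory alpha subunit and moved the other way. It read 8.18 and 24.04 CPM in the siTfap4 libraries, 56.4 and 45.1 with siWiz, 51.0 and 63.1 with siZic2 and 54.0 and 50.3 with siNeg, with the siTfap4 pair lowest and unequal. The log2 fold change was -1.69 (SE 0.37, adjusted p = 0.0104), or 31.0% of the siNeg level, and the call was lost in 2 of the 8 fits that left out 1 library (up to 0.0505). The beta subunit gene Eif2b2 read 184 and 154 CPM in the siTfap4 libraries, 93.9 and 126 with siWiz, 76.7 and 83.4 with siZic2 and 85.6 and 124 with siNeg. Eif2b2 was called against siZic2 (log2 1.08, adjusted p = 0.0102) and not against siNeg (0.69, adjusted p = 0.078). Eif2b4 (delta) read 156 and 128 CPM in the siTfap4 libraries, 95.4 and 119 with siWiz, 86.0 and 86.6 with siZic2 and 74.8 and 120.5 with siNeg, so 3 of the 5 genes had both siTfap4 libraries above the other 6, as did 21.4% of all genes tested. Eif2b3 (gamma) ran from 48.5 to 60.5 CPM over all libraries, and the summed eIF2B level was 630.3 and 544 CPM in siTfap4 against 359 to 477 elsewhere.

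**Figure D2:**
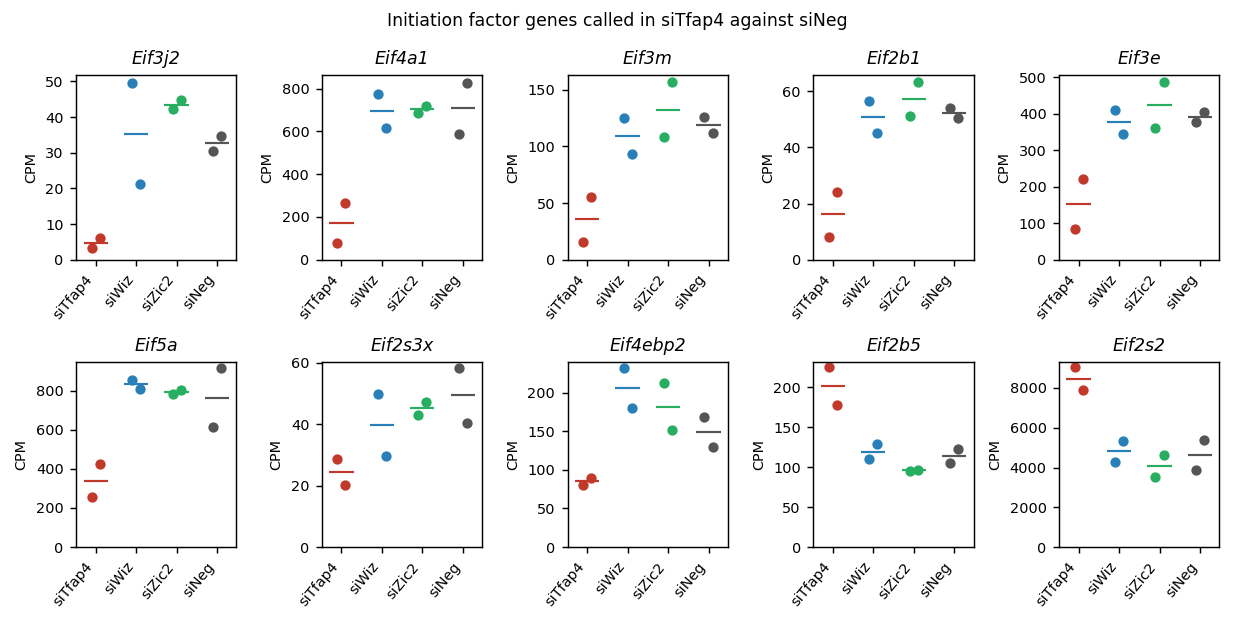
CPM, on linear axes that start at 0, of the 10 members called in siTfap4 against siNeg, with 1 point per library and a line at each group mean. For Eif2b5 and Eif2s2 both siTfap4 points are the highest, and for the 8 members that fell both are the lowest of the 8 points.

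The genes of start codon choice and subunit joining had 7 tested members and 0 calls against siNeg by edgeR. The unadjusted p was under 0.05 for 3 of them, beside 32.4% of all genes. DESeq2 called 1 lower, beside 18.7% of all genes called in either direction. That 1 was Eif1a, an autosomal gene for eIF1A, at 111 and 164 CPM in the siTfap4 libraries, 265 and 229 with siWiz, 222 and 233 with siZic2 and 212 and 249.6 with siNeg (log2 -0.75, adjusted p = 0.0521 by edgeR). Eif1, which guards the choice of start codon, read 302 and 436 CPM in the siTfap4 libraries, 683 and 588 with siWiz, 557 and 612 with siZic2 and 485 and 654 with siNeg (log2 -0.63, adjusted p = 0.111). Eif5b, whose product joins the large subunit and whose window holds CAGCTG, read 1226 and 1199 CPM in the siTfap4 libraries, 989 and 1017 with siWiz, 974 and 943 with siZic2 and 1111 and 1021 with siNeg. Its siTfap4 libraries were the 2 highest of the 8, by a small margin (log2 0.19, SE 0.22, adjusted p = 0.594). Eif5, the activator of GTP hydrolysis by eIF2, read 581 and 608 CPM in the siTfap4 libraries, 677 and 659 with siWiz, 623 and 672 with siZic2 and 578 and 623 with siNeg, with no separation of groups.

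Of the 3 tested genes of eIF5A and eIF6, 1 fell. Eif5a (chr11:69916714-69921958, minus strand), the factor that carries the amino acid hypusine and helps ribosomes past difficult stretches, read 257 and 423 CPM in the siTfap4 libraries, 856 and 811 with siWiz, 781 and 803 with siZic2 and 612 and 914 with siNeg. The siTfap4 pair was lowest, at 340.1 ± 118 CPM against 763 ± 214 in siNeg (SD, n = 2 each), with a log2 fold change of -1.17 (SE 0.28, adjusted p = 0.0164). The call was lost in 2 of the 8 fits that left out 1 library (up to 0.148), and Eif5a overlaps Gps2 on the opposite strand. Eif6, which keeps free large subunits from joining, read 166 and 134 CPM in the siTfap4 libraries, 81.5 and 109 with siWiz, 88.5 and 101 with siZic2 and 75.2 and 110.3 with siNeg, with both siTfap4 libraries highest (log2 0.70, adjusted p = 0.0789). The least abundant members, Eif4e3, Eif5a2, Eif4e1b and Eif2s3y, had means of 1.00, 1.97, 2.23 and 2.35 CPM over the 8 libraries and were not called in any comparison.

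Counting members whose 2 siTfap4 libraries both lay outside the range of the other 6 gives a count that needs no model. There were 13 members above (26%), beside 21.4% of all genes tested, and 15 below (30%), beside 23.0% of all genes. By role, 3 of 5 eIF2B genes were above and 1 below, and 4 of 14 eIF3 genes above and 3 below. Of the 12 genes of eIF4F and its helpers, 3 were above and 3 below.

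**Figure D3:**
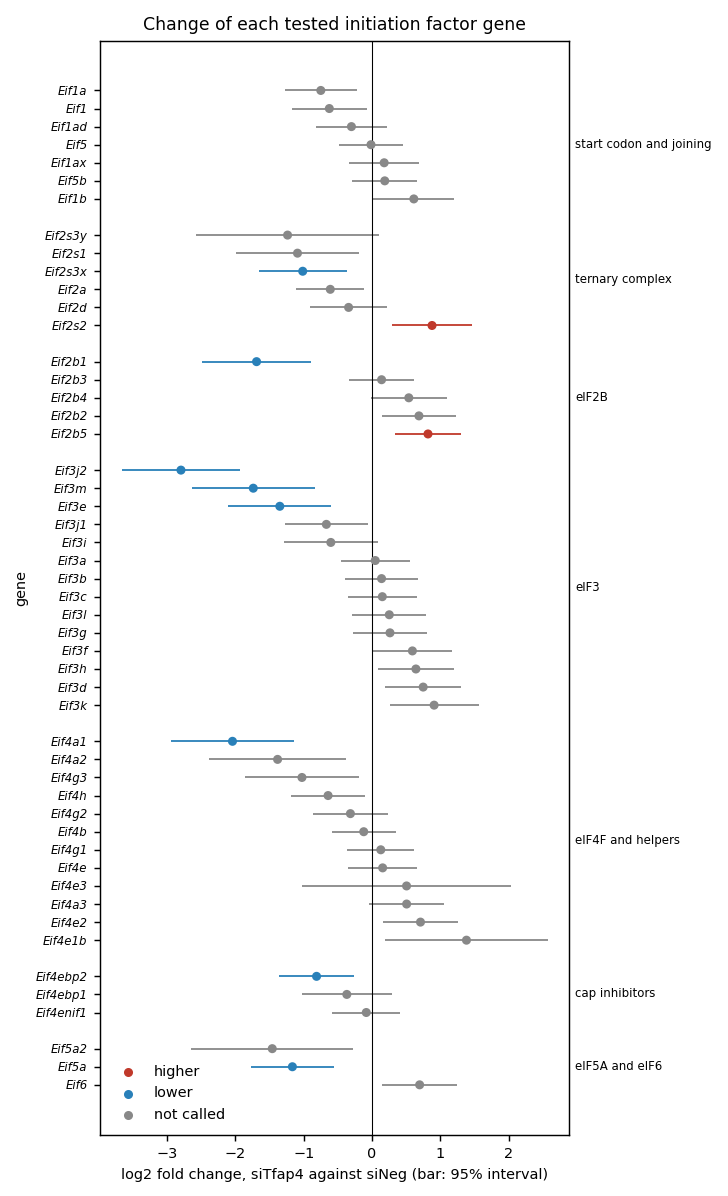
Log2 fold change of siTfap4 over siNeg for the 50 tested members with its 95% interval, grouped by role, with called members marked. Most groups hold values on both sides of 0, from -2.80 for Eif3j2 to 1.38 for Eif4e1b, which was not called.

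Against the other siPOOLs, siTfap4 gave further calls. Against siWiz, 10 members were called: 2 rose (4%, beside 4.66% of all genes) and 8 fell (16%, beside 10.4%). The 10 were those found against siNeg without Eif2s2 and Eif2s3x, and with Eif3d higher and Eif1a lower. Against siZic2, 7 rose (14%, beside 8.41% of all genes) and 11 fell (22%, beside 14.7%). These 18 included all 10 found against siNeg, with Eif2b2, Eif3d, Eif3h, Eif3k and Eif1b higher and Eif4a2, Eif4g3 and Eif1a lower. These 3 comparisons share the siTfap4 libraries, so they are not separate tests of the same change.

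Single libraries decided many of these calls. Against siNeg, the share of all genes called was also lower without siTfap4 replicate 1 or without siNeg replicate 1 than in the full fit. Of the 10 calls against siNeg, 2 were kept with any 1 library left out, those of Eif3j2 and Eif4a1. Without siTfap4 replicate 1 the other 8 were lost (adjusted p from 0.0505 to 0.219), and without siNeg replicate 1 the same 8 apart from Eif5a were lost (0.0501 to 0.254). Without siNeg replicate 2, Eif3e (0.0525) and Eif5a (0.0749) were lost, and without siTfap4 replicate 2, Eif4ebp2 (0.0515) and Eif2s3x (0.119). Without either siZic2 library Eif2b5, Eif2s2, Eif2s3x and Eif4ebp2 were lost (0.0547 to 0.0672), and without either siWiz library Eif2s2 and Eif4ebp2 (0.0509 to 0.0618). Without siTfap4 replicate 2 the log2 fold changes were larger, at -2.68 for Eif2b1, -2.92 for Eif3m and -2.20 for Eif3e, and without replicate 1 that of Eif3m was -1.11.

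Against siWiz, Eif3j2 and Eif4a1 were again those kept with any 1 library left out, and without siTfap4 replicate 1 or without siWiz replicate 1 the other 8 of the 10 calls were lost (adjusted p from 0.0586 to 0.291). Eif1a, Eif2b5 and Eif3d were also lost without siWiz replicate 2 or either siZic2 library (0.0608 to 0.102). Against siZic2, Eif2b1, Eif3j2, Eif3m and Eif4a1 were kept, while 14 of the 18 were lost without siTfap4 replicate 1 (0.0502 to 0.276), 11 without siZic2 replicate 1 (0.0712 to 0.309) and 10 without siZic2 replicate 2 (0.0532 to 0.192). Eif1b, Eif2s3x and Eif4g3 were lost without siTfap4 replicate 2 (0.0669 to 0.173), and Eif1a, Eif1b and Eif3h without either siWiz library (0.0507 to 0.0621). Without siTfap4 replicate 2 the log2 values against siZic2 were -2.81 for Eif2b1, -2.32 for Eif3e, -3.07 for Eif3m and -3.17 for Eif4a1, and without replicate 1 they were -1.27 for Eif3m and -1.42 for Eif4a1. The values against siWiz without siTfap4 replicate 2 were -2.64 for Eif2b1, -2.15 for Eif3e, -2.79 for Eif3m and -3.15 for Eif4a1, and without replicate 1 they were -0.98 for Eif3m and -1.40 for Eif4a1.

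The 2 siTfap4 libraries differed along the members that fell. Of those 8, 7 were higher in siTfap4 replicate 2 than in replicate 1, with a median log2 ratio of 1.12. The same 8 genes were higher in replicate 2 in 0 cases with siWiz (median -0.35), in 7 with siZic2 (median 0.11) and in 4 with siNeg (median 0.00), and they were chosen by their siTfap4 values, so these counts are a description. Over all 50 members, the median ratio regardless of sign was 0.28 for the siTfap4 libraries, 0.27 for siWiz, 0.17 for siZic2 and 0.46 for siNeg. The knocked-down gene Tfap4 itself was lower in replicate 1 (12.03 CPM) than in replicate 2 (15.7). Whether the degree of knockdown or the preparation of these libraries bears on the difference was not tested.

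**Figure D4:**
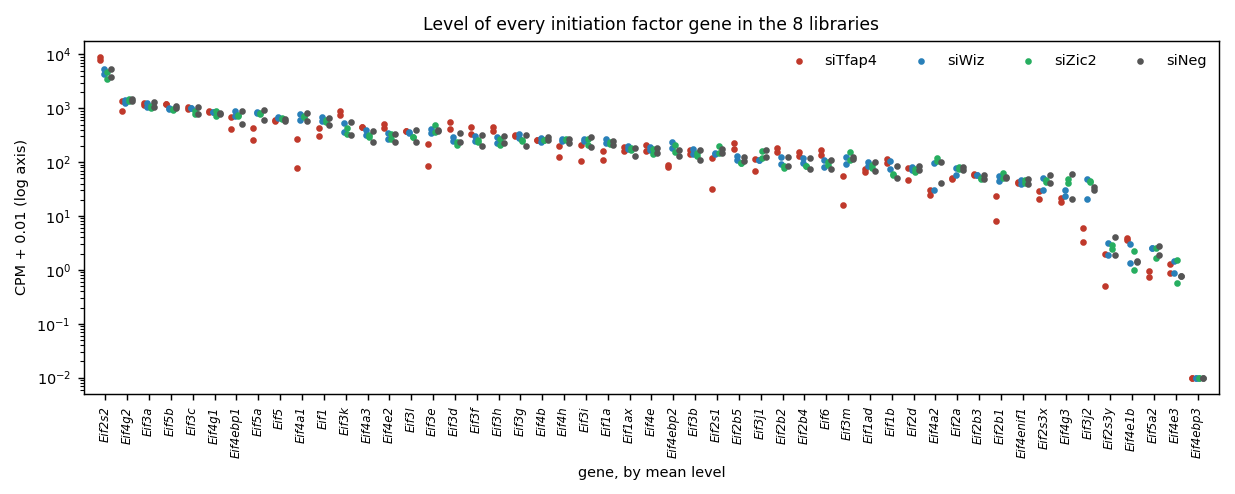
CPM + 0.01 on a log axis of all 51 members, with 1 point per library coloured by group, ordered by mean level. Eif2s2 stands at the top between 3547 and 9038 CPM, 4 tested members lie under 5 CPM, and Eif4ebp3 is at 0 in every library.

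With siWiz, 0 of the 50 members were called against siNeg by edgeR, beside 0% of all 14647 genes. At an unadjusted p under 0.05 there were also 0 members, beside 1.82% of all genes, and DESeq2 called 0, beside 0.00683% of all genes. Over the 46 members with a mean of at least 5 CPM, log2 fold changes ran from -0.59 (Eif4g3) to 0.47 (Eif4ebp2), and the 95% intervals reached from -1.40 to 1.01. The smallest unadjusted p was 0.0842, for Eif4ebp2. The median log2 value was 0.07 over the members and 0.00 over all genes.

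With siZic2 the result was likewise 0 called members of 50 by edgeR, beside 0% of all genes, and again 0 by unadjusted p under 0.05 (0.587% of all genes) and 0 by DESeq2 (0% of all genes). Log2 fold changes ran from -0.39 (Eif2b2) to 0.65 (Eif4a2), within 95% intervals of -0.93 to 1.61, and the smallest unadjusted p was 0.144. The direct comparison of siWiz with siZic2 gave 0 calls by edgeR beside 0% of all genes, 0 at an unadjusted p under 0.05 (2.62% of all genes) and 0 by DESeq2 (0% of all genes), with values from -0.82 (Eif4a2) to 0.59 (Eif1b). The median size of the log2 change regardless of sign was 0.12 for the members with either siPOOL. The widest of these intervals reach beyond the changes called for Eif4ebp2 and Eif2b5 with siTfap4.

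The base composition of transcript ends moved with these values. Over the 50 members, the log2 fold change of siTfap4 over siNeg had a Pearson correlation of 0.35 and a Spearman correlation of 0.40 with the GC content of the last 300 bases, and over 12479 protein-coding genes the values were 0.31 and 0.36. These are correlations across genes of the same libraries, and genes are not replicates. The ratio of the 2 siNeg libraries, which share a treatment, had a correlation with GC of 0.44 (Pearson) and 0.50 (Spearman) over the members. For the 2 siWiz libraries the values were 0.55 and 0.59. They were negative for the 2 siTfap4 libraries (-0.23 and -0.29) and for the 2 siZic2 libraries (-0.22 and -0.12). Median GC was 40.5% for the 8 members that fell, 46.2% for the pair that rose and 43.8% for the 40 not called. Over all tested protein-coding genes it was 39%, 50.7% and 42.7% in the same order. A fit corrected for this GC content kept 8 of the 10 calls against siNeg, without Eif2b5 and Eif2s3x, 7 of 10 against siWiz, without Eif2b5, Eif3d and Eif1a, and 14 of 18 against siZic2, without Eif3d, Eif3h, Eif2s3x and Eif1a.

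**Figure D5:**
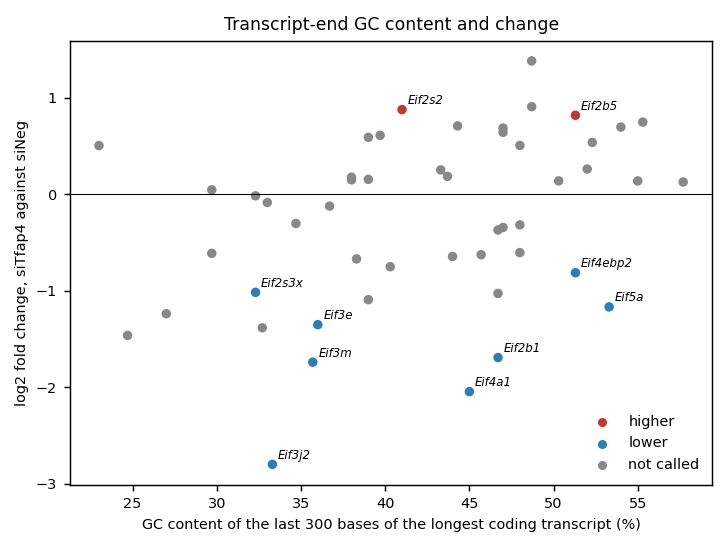
Log2 fold change of siTfap4 over siNeg against the GC content of the last 300 transcript bases for the 50 tested members, with 1 point per gene and called genes coloured and named. The 8 members that fell span a GC content of 32.3% to 53.3%, with Eif4a1 at 45.0%.

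Genes that regulate initiation or act beside it were taken from 6 lists. Among 9 tested genes for eIF2 kinases and their stress response, 2 fell and 1 rose with siTfap4, beside 11.7% lower and 4.24% higher over all genes. The same background holds for each list here. The pair that fell encode the subunits that direct phosphatase to eIF2 alpha. Ppp1r15b read 70.7 and 74.0 CPM in the siTfap4 libraries, 163 and 131 with siWiz, 198 and 224 with siZic2 and 221 and 161 with siNeg (log2 -1.40, SE 0.24, adjusted p = 0.00273). Ppp1r15a, the stress-induced form, read 10.0 and 16.2 CPM in the siTfap4 libraries, 31.7 and 30.9 with siWiz, 37.0 and 32.7 with siZic2 and 36.7 and 33.7 with siNeg (log2 -1.42, SE 0.27, adjusted p = 0.00467). Atf4, the transcription factor of this response, rose (log2 0.84, adjusted p = 0.0422), and none of the 4 kinase genes Eif2ak1 to Eif2ak4 was called by edgeR.

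Of the 13 genes of mTORC1 and cap signalling, 2 fell and 1 rose, beside 11.7% and 4.24% of all genes. Mknk2, a kinase of eIF4E, fell (log2 -0.95, adjusted p = 0.0263), as did Rheb, the GTPase that activates mTORC1 (-0.91, adjusted p = 0.0458), while Mlst8, a subunit of mTOR complexes, rose (0.94, adjusted p = 0.0424). Of the 6 poly(A)-binding proteins and partners, Pabpc4 (log2 -1.03, adjusted p = 0.0316) and the nuclear Pabpn1 (-2.13, adjusted p = 0.0321) fell, and Paip2b, an inhibitor of poly(A)-binding protein, rose (1.09, adjusted p = 0.0145). Of the 12 other helpers, 1 fell, the ribosome recycling gene Abce1 (-1.21, adjusted p = 0.0127).

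Of the 11 tested genes of elongation, 2 rose and 2 fell, beside 4.24% and 11.7% of all genes. Eef1a1, which delivers transfer RNA to the ribosome, read 417 and 299.7 CPM in the siTfap4 libraries, 160.4 and 188 with siWiz, 136 and 137 with siZic2 and 151 and 141 with siNeg (log2 1.30, SE 0.24, adjusted p = 0.0036). It has many near-identical processed copies, between which the counting could split reads, so this value is uncertain. Tsfm, the mitochondrial elongation factor (-1.18, adjusted p = 0.0386), and Eef1e1, a partner of the tRNA synthetase complex (-1.11, adjusted p = 0.0433), fell. Dohh, which completes hypusine on eIF5A, rose (0.88, adjusted p = 0.0481) and is named outside the naming rule, after its value was seen. Of the 7 tested genes of termination and recycling, 0 were called by edgeR or DESeq2 and 1 had an unadjusted p under 0.05, Nemf (log2 0.63, adjusted p = 0.0857). Across these lists siWiz and siZic2 gave 0 calls against siNeg by edgeR and 0 by DESeq2, and the unadjusted p was under 0.05 for 1 gene, Mcts2 with siWiz.

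Of these 14 calls, 3 were kept with any 1 library left out, those of Ppp1r15a, Ppp1r15b and Eef1a1. Without siTfap4 replicate 1 the other 11 were lost (adjusted p from 0.0999 to 0.326), and without siNeg replicate 1 those of all but Paip2b among the 11 were lost (0.0891 to 0.3005). Without siNeg replicate 2, Atf4, Rheb, Paip2b and Dohh were lost (0.0635 to 0.0718), without either siZic2 library Atf4, Mlst8, Rheb, Eef1e1 and Dohh (0.0573 to 0.0738), without either siWiz library Atf4 and Rheb (0.0506 to 0.0556), and without siTfap4 replicate 2 Dohh (0.0605). The fit corrected for GC content lost the calls of Dohh (log2 0.31, adjusted p = 0.3675 by edgeR), Mlst8 (0.70, adjusted p = 0.0715) and Pabpc4 (-0.72, adjusted p = 0.0785). Pabpn1 read 0.37 and 1.41 CPM in the siTfap4 libraries and 2.40 to 7.04 in the other groups. Its siTfap4 level is thus near the floor. Its log2 value was -1.50 without siTfap4 replicate 1, -3.39 without replicate 2 and -1.39 without siNeg replicate 1.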

How the data were processed

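The authors deposited raw read counts by Ensembl gene for the 8 libraries, made from 500 ng of RNA each with a 3' end kit, per the labels' protocols, and 0 columns were left unmapped. Trim Galore and the genome build GRCm38 are named in the submitters' processing notes. Not given in the sources used here are the aligner, counter, annotation release, strand setting and any molecular identifiers. Symbols, positions and transcript ends came from GENCODE M21, which matched 55240 of 55421 identifiers and left 181, and promoters from RefSeq.

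Counts were filtered with filterByExpr (14647 genes left), TMM-scaled and tested by the quasi-likelihood method (edgeR 4.0.16, R 4.3.3) in 1 fit of all 8 libraries that had a mean for each group and no block. The biological coefficient of variation was 22.2%, with 4 residual and 9.70 prior degrees of freedom. P-values were adjusted by Benjamini-Hochberg, with a threshold of 0.05, and SEs came from the F statistic. Libraries within a group differed beyond sampling of reads (chi-square of 19.6 to 42.0 for each degree of freedom), so no pair is 1 library deposited again.

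The 6 comparisons were each pair of the 4 groups. Members and lists were chosen with earlier results of these data known. Values in every library are given for the 12 called members with the smallest p and the 2 most abundant of each role, with some further members given for contrast. Up to 3 called genes are named per list. Alternatives were DESeq2 1.42.0, other scalings and filters, protein-coding genes alone, the compared groups alone, a replicate block, a 1.5-fold minimum and leaving out each library. A GC correction and a joint leave-out of siTfap4 replicate 1 and siNeg replicate 1 were added after seeing the data. The fit was tested on simulated data with known changes.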

Additional observations from a re-analysis of the deposited data

How the results depend on the processing

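No called member or listed gene changed direction under the alternatives run, while the medians over members, which lie near 0, changed sign under some. The count of members called with siTfap4 against siNeg (10, 20% of members and 15.9% of all genes) was 17 with no filter beyond 1 count (34% of members, 10.9% of all genes), 21 with a replicate block (42% and 22.1%), 3 with a 1.5-fold minimum (6% and 5.09%), 3 without siTfap4 replicate 1 and siNeg replicate 1 together (6% and 3.36%), and 2 to 17 with 1 library left out. Against siWiz (10) it was 16 with the block (32% and 20.9%), 4 with the 1.5-fold minimum (8% and 4.47%), 6 without that pair of libraries (12% and 6.55%) and 2 to 15 with 1 left out. Against siZic2 (18) it was 6 with the 1.5-fold minimum (12% and 8.26%) and 4 to 23 with 1 left out. The share of all genes called also varied with the library left out. The cause was not tested, beyond the lower power that fewer libraries or a fold minimum give by construction. All 10, 10 and 18 calls were kept under the block and under DESeq2. The labels do not say that the replicate numbers pair libraries, so the block was kept as an alternative. Deviations of same-numbered libraries correlated between -0.04 and 0.33 over all genes tested and between -0.365 and 0.628 over the members.

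The median log2 change of the members with siTfap4 against siNeg (-0.05) was -0.114 with library totals alone, -0.117 with the compared groups alone and -0.061 to 0.005 with 1 library left out. Left-out libraries gave -0.036 to 0.224 for siWiz against siNeg (0.07), -0.138 to 0.116 for siZic2 against siNeg (-0.02), -0.235 to -0.038 for siTfap4 against siWiz (-0.09) and -0.154 to 0.002 for siTfap4 against siZic2 (-0.02). Without siTfap4 replicate 1 and siNeg replicate 1 together it was -0.053 for siWiz and -0.175 for siZic2 against siNeg. For siWiz against siZic2 (0.12) it was 0.088 with library totals alone, 0.085 with no filter beyond 1 count, 0.098 with the compared groups alone, 0.079 with the GC correction and 0.012 to 0.15 with 1 left out.

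Calls in the gene lists with siTfap4 against siNeg depended on the same settings. Without that pair of libraries they were 1 for eIF2 kinases (3), 0 for mTORC1 (3), 0 for poly(A)-binding (3), 0 for other helpers (1) and 1 for elongation (4). With the 1.5-fold minimum they were 0 for mTORC1, poly(A)-binding and other helpers and 1 for elongation, and mTORC1 had 0 with the compared groups alone. Other helpers had 2 with DESeq2, with protein-coding genes alone, with a 5 CPM minimum or with no filter beyond 1 count, and 3 with the block or the GC correction, and termination had 1 with the block. With 1 library left out the ranges were 2 to 3 (eIF2 kinases), 0 to 4 (mTORC1), 0 to 4 (poly(A)-binding), 0 to 3 (other helpers), 1 to 4 (elongation) and 0 to 1 (termination). Members under 5 CPM, and any change smaller than the spread of 2 libraries, are beyond what this depth can show.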
